A study of Mus musculus with 2 samples.

Results

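A set of 8 genes that mark the alternative, or IL-4-type, state of mouse macrophages was read in bone marrow-derived macrophages with and without calpain-6. They are the chitinase-like protein gene Chil3, the arginase gene Arg1, Retnla, Alox15, Klf4, Tgm2 and the galactose-type lectin genes Mgl2 and Clec10a. Members were taken as all non-control probes whose RefSeq accession belongs to one of these genes, which gave 9 probes for 8 genes among 27232 named probes for 20660 genes. The cells were marrow cultures of calpain-6 wild-type male mice (Capn6-Wt) and of calpain-6-deficient male mice (Capn6-Ko), with the same medium in both groups, which held 10% serum, TNF-α (10 ng/mL) and the macrophage growth factor M-CSF (50 ng/mL). The labels give day 3 in one field and day 4 in another, and name no IL-4 or IL-13 in the medium. The series design gives 4 mice, pooled, without saying whether that is the number per group, and the labels do not describe the targeted allele. Each group was 1 array, so there are no replicates. No test between genotypes is possible, and every value describes these 2 RNA pools.

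In alternative activation, IL-4 or IL-13 binds a receptor that contains the IL-4 receptor α chain, Janus kinases phosphorylate STAT6, and STAT6 switches on a set of secreted, enzymatic and surface proteins. The partner chain is the common γ chain in the type I receptor and the IL-13 receptor α1 chain in the type II receptor. In macrophages this state is known for responses to helminths, for tissue repair and for a metabolism that sends arginine to ornithine rather than to nitric oxide. Several of its marker genes also have inputs other than IL-4, among them growth factors and other cytokines.

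The proximal promoters of Chil3, which was detected here, and of Retnla, which was at background, are shown side by side. Whether their letters bear on either reading was not tested. The 250 bases before the gene start come from RefSeq on GRCm38.p6, where the table used here also holds Klf4 and Mgl2. Capitals mark matches to the palindrome of TTC and GAA with any 4 bases between, the spacing that STAT6 is known to prefer, to the same ends with any 3 bases between, the spacing of other STAT proteins, and to the TATA box letters TATAAA, searched on both strands.
Chil3, chr3:106167565-106167814, minus strand: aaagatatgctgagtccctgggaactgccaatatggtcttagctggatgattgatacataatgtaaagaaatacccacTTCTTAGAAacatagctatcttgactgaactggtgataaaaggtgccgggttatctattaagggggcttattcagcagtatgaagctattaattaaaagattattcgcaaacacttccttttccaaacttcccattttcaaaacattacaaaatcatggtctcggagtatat
Retnla, chr16:48842359-48842608, plus strand: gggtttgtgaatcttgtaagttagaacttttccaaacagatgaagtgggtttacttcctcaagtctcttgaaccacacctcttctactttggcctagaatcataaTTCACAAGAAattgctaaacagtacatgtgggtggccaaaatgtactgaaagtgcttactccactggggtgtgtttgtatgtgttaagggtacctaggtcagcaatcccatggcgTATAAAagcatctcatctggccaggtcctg

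The Retnla window held 1 match to the STAT6 spacing, TTCACAAGAA, from -145 to -136 relative to the gene start, and a TATA box from -30 to -25. The Chil3 window held no match to that spacing and 1 match to the shorter one, TTCTTAGAA, from -172 to -164. Neither palindrome nor TATAAA was found in the windows of Klf4 and Mgl2. Of 32851 windows of the same length, 5.85% held the palindrome with 4 bases between, 7.02% that with 3 and 12.4% held TATAAA. These are matches of letters and not measured sites.

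Both arrays had similar overall signal. Of the non-control spots, 51.7% in Capn6-Wt and 52.8% in Capn6-Ko were well above background. Their processed signals, a background-subtracted intensity, had 75th percentiles of 377 and 372, and no spot was saturated. The single Capn6 probe read 3.93 in Capn6-Wt and 8.65 in Capn6-Ko, not well above background on either, so it does not check the labels. Of the macrophage markers, 13 of 13 with a named probe were well above background on both arrays, including Csf1r, Adgre1 and Mertk. Stromal fibroblast and smooth muscle markers were also detected, 19 of 20, beside the macrophage markers.

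The genes fell into detected and undetected sets that were the same in both cultures. Chil3, Klf4, Tgm2, Mgl2 and Clec10a were well above background on both arrays, and Arg1, Retnla and Alox15 on neither. This made 5 of 8 genes detectable, where 62.3% of all genes on the array were, so the share is close to that of the array as a whole. The lowest signal that the scanner marked well above background was 16.6 for Capn6-Wt and 14.0 for Capn6-Ko. It is not a strict limit of detection, since some brighter probes were not marked. Among them were Gata3 at 17.1 in Capn6-Wt and Ccr1 at 16.7 in Capn6-Ko. In place of a test, a gene was called where its log2 difference was at least 0.32 in size, which is 25% higher or 20% lower in Capn6-Ko. Among the 5 detected genes Chil3 was called, and it was higher in Capn6-Ko. The background for that call was 2.64% of 12875 measured genes, and 0.684% of the 6437 above the median level, where Chil3 lies. None of the 5 was called lower, where 5.53% of all measured genes were, and 0.886% of those above the median level. None of the 5 was 1.5-fold higher or lower, where 0.334% and 1.26% of all measured genes were, and none was 2-fold higher or lower, where 0.0233% and 0.0699% were.

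**Figure D1:**
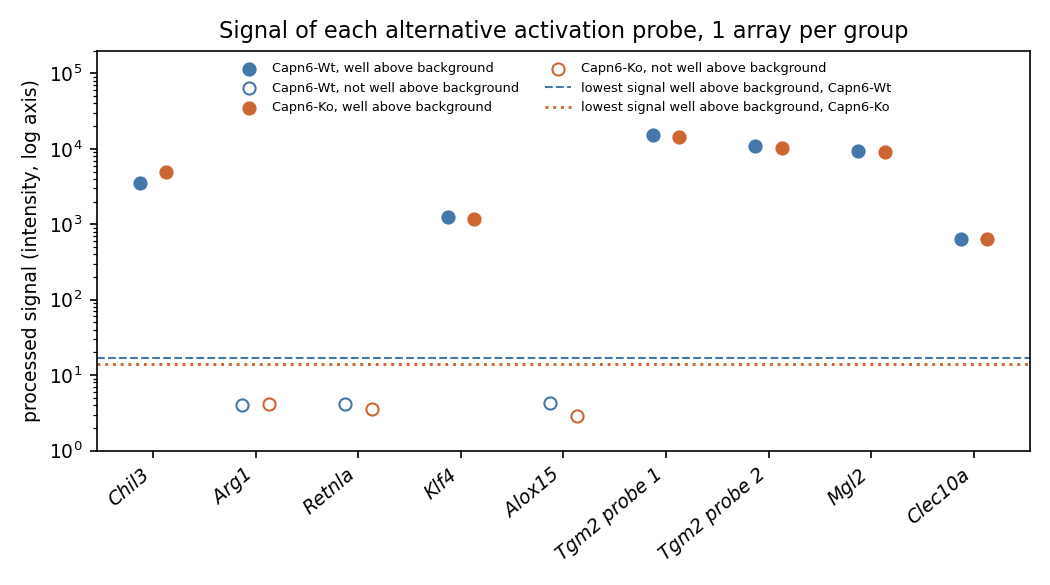
Processed signal (intensity, log axis) of each of the 9 probes on the Capn6-Wt and Capn6-Ko arrays, with filled points for spots well above background, open points for the others, and lines at the lowest signal called well above background (16.6 and 14.0). Chil3 reads 3532 and 4871, the other detected probes lie nearly level between the arrays, and Arg1, Retnla and Alox15 lie under the lines on both. Heights are not comparable between genes, since probes differ in brightness.

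Among the secreted products, Chil3 encodes Ym1, a lectin of the chitinase family without chitinase activity that is made in quantity by alternatively activated macrophages and also by immature myeloid cells. Its probe read 3532 in Capn6-Wt against 4871 in Capn6-Ko, from 1 spot on each array. The Capn6-Ko pool was 1.4-fold higher, a log2 difference of 0.48 ± 0.076, where the error here and below is the SD expected from repeated spots of the same probe at that level. That SD covers spotting and scanning only, and not mice, culture, RNA extraction or labelling. Of the 6437 genes above the median level, 15 had a difference at least as high as that of Chil3, itself included. The 191 measured spots within 10 rows and 10 columns of it had a median difference of 0.0028, so the spots around it showed no shared shift.

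Chil3 sits in a cluster of chitinase and chitinase-like genes, and the relatives measured here were dim or at background, except Ctbs and Chid1. Chil4, which encodes the closely related Ym2 and lies next to Chil3, read 28.0 and 32.4, a difference of 0.23 ± 0.33. Chil1 and Chil6, other chitinase-like genes, and Chit1, the macrophage chitinase, were not well above background on either array. Chia1, the acidic chitinase, and Ovgp1 were well above background only in Capn6-Ko, at 17.8 and 19.9, against 9.0 and 15.4 in Capn6-Wt. Set against the lowest signal that counted as detected in Capn6-Wt, they were 1.09-fold and 1.21-fold higher. The SD of the log2 difference for 1 spot per array at such dim levels is 0.33, larger than either, so neither is a firm bound. Ctbs and Chid1, distant relatives, were at 0.22 ± 0.12 and -0.22 ± 0.12. Thus 3 of 8 genes of this family with a named probe were measured and none was called. The transcripts of Chil3 and Chil4 are similar in sequence, and whether the Chil3 probe also binds Chil4 RNA was not tested.

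Retnla encodes RELMα, also known as Fizz1, a small secreted protein that is among the genes most strongly induced by IL-4 in mouse macrophages. Its probe read 4.15 in Capn6-Wt and 3.56 in Capn6-Ko, both below the lowest signal called well above background, so no fold is given. In gene order it stands between Retnlb and Retnlg, its nearest relatives. Retnlb read 6.16 and 3.04 and Retnlg 4.06 and 3.46, so the whole cluster was at background. Resistin itself, Retn, had 1 probe measured on both arrays, at 46.6 and 42.2 (-0.13 ± 0.33), and 1 probe well above background in Capn6-Wt only, at 28.7 against 15.8.

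Of the enzymes, Arg1 and Alox15 were undetected and Tgm2 was bright. Arg1, which hydrolyses arginine to ornithine and urea, read 4.04 in Capn6-Wt and 4.15 in Capn6-Ko. Alox15, the 12/15-lipoxygenase that oxidises arachidonic and linoleic acid, read 4.26 and 2.89. Neither gene has a fold, since both readings are at background. Tgm2, the tissue transglutaminase that cross-links proteins between glutamine and lysine, has 2 probes, which read 15058 and 10941 in Capn6-Wt and 14200.5 and 10392 in Capn6-Ko. The probes gave -0.066 ± 0.082 and -0.056 ± 0.082, and their mean, -0.061 ± 0.058, was about the size of the spot error.

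With Arg1 at background, the other arginine genes were read from their list. Arg2, the mitochondrial arginase, read 216 in wild-type and 169 in deficient cells, with a difference of -0.34 ± 0.12. Nos2, the inducible nitric oxide synthase that competes for arginine in classical activation, read 84.1 and 71.2 (-0.22 ± 0.12, 2 spots per array). The arginine transporter gene Slc7a1 was at -0.28 ± 0.076 and the transporter gene Slc7a2, a known IL-4 target, at 0.14 ± 0.17. Further down the pathway Odc1, which makes putrescine from ornithine, was at -0.18 ± 0.055, Srm, the spermidine synthase, at -0.14 ± 0.057, and Sms, the spermine synthase, at 0.29 ± 0.050. Agmat, the lowest of the list, was at -0.37 ± 0.17. Of 17 measured genes 11 were lower and 6 higher, with Agmat and Arg2 called lower and none called higher. Of the 6 higher, Oaz2, an inhibitor of Odc1, was at 0.11 ± 0.071. Over all measured genes 5.53% were called lower and 2.64% higher. Agmat and Arg2 lie below the median level, where calls were more frequent than these shares. The median was -0.051, where that of all measured genes was -0.0056.

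The relatives of the lipoxygenase and the transglutaminase were read in the same way. Alox5, which starts leukotriene synthesis, was at 0.19 ± 0.12, its partner Alox5ap at 0.079 ± 0.082 and Ltc4s, the leukotriene C4 synthase, at -0.065 ± 0.085. Alox12, which lies near Alox15 in gene order with Alox12e between them, was at 0.16 ± 0.12 by its measured probe, and its second probe was well above background in Capn6-Wt only. Alox12e and Alox8 were at background. The epidermal lipoxygenase genes Alox12b and Aloxe3 were at -0.23 ± 0.33 and -0.060 ± 0.17. Pebp1, a scaffold that binds 15-lipoxygenases, was at -0.14 ± 0.058, and Gpx4, which reduces lipid peroxides, at -0.021 ± 0.082. Of the genes that release or process the lipid substrates, Pla2g4a was at 0.021 ± 0.078, Lta4h at 0.025 ± 0.076, Acsl4 at 0.0022 ± 0.076 and Lpcat3 at -0.18 ± 0.085. None of the 12 measured genes of that list was called, and the median was -0.0093. Of the transglutaminase family 4 of 9 were measured. F13a1, the coagulation factor XIII A subunit and itself an IL-4-type marker, was at 0.51 ± 0.17, the mean of a bright probe at 0.35 ± 0.076 and a dim probe at 0.67 ± 0.33. Tgm3 was at -0.18 ± 0.093, Tgm4 at -0.17 ± 0.33 and Tgm6 at -0.055 ± 0.33. Tgm5, Tgm7, F13b and Epb42 were at background. Tgm1 was well above background in Capn6-Wt only, at 32.0 against 14.7. By these readings of 1 spot per array it was 2.15-fold higher there, at a level where the spot SD is 0.33.

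Klf4, a zinc-finger transcription factor known to act with STAT6 in alternative activation, read 1257 in Capn6-Wt against 1159 in Capn6-Ko. The difference was -0.099 ± 0.078, the furthest below 0 among the detected genes and close to its spot error. Among 9 measured Kruppel-like factors other than Klf4, differences ran from -0.088 (Klf6) to 0.10 (Klf10), and none was called. Klf3 was at -0.067 ± 0.076, Klf7 at 0.012 ± 0.078, Klf8 at -0.022 ± 0.12, Klf9 at -0.046 ± 0.12, Klf13 at -0.0044 ± 0.076 and Klf16 at 0.071 ± 0.12. Klf5, Klf12, Klf14 and Klf17 were at background, and Klf11 and Klf15 were well above it only in Capn6-Ko. Klf2, the other family member best known for restraining inflammation in myeloid cells, was at 0.040 ± 0.093. Klf1, the erythroid factor, was well above background in Capn6-Wt only (27.5 against 9.90). It was 1.94-fold higher there when set against the lowest signal that counted as detected in Capn6-Ko. The spot SD at such dim levels is 0.33, so this is not a firm bound.

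Mgl2 and Clec10a encode the surface lectins CD301b and CD301a, which bind galactose and N-acetylgalactosamine and take up glycoproteins. They are neighbours in gene order. Mgl2 read 9407 in Capn6-Wt against 9203 in Capn6-Ko, which is a difference of -0.013 ± 0.082. Clec10a read 639 and 636, a difference of 0.012 ± 0.093. For both the spot error exceeded the difference, and each rests on 1 spot per array. Their relatives Asgr1 and Asgr2, the subunits of the asialoglycoprotein receptor, lie beside them, with Asgr1 at background and Asgr2 at -0.18 ± 0.17.

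Across C-type lectin receptors as a list, 18 of 30 with a named probe were measured, 11 higher and 7 lower, with a median of 0.085. Clec4a1 (0.41 ± 0.076), Clec5a (0.40 ± 0.33) and Clec12a (0.40 ± 0.33), myeloid receptors, were called higher, and Fcer2a, the low-affinity IgE receptor, was called lower at -0.52 ± 0.33. Cd209g was at -0.25 ± 0.33. Over all measured genes 2.64% were called higher and 5.53% lower, which is the background for this and every other list. Above the median level these shares were 0.684% and 0.886%, so genes below that level were called more often than the shares over all genes. Clec5a, Clec12a and Fcer2a lie below it. The mannose receptor Mrc1, the most used surface marker of alternative activation, read 5258 in Capn6-Wt and 5032 in Capn6-Ko (-0.045 ± 0.076). Cd209a was at background, as were Cd209b, Cd209c and Cd209e.

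**Figure D2:**
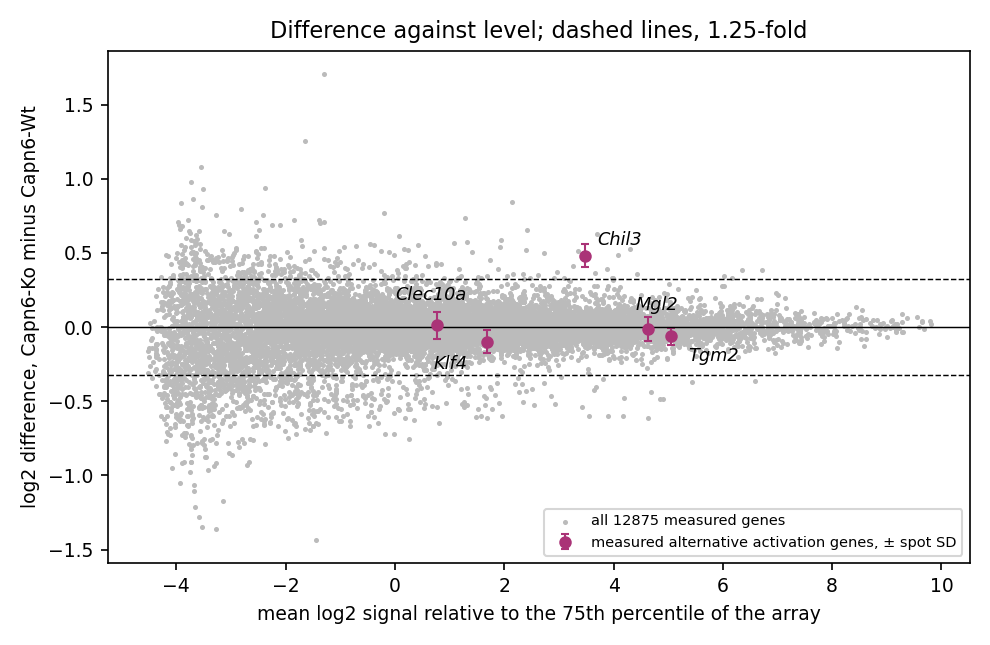
The log2 difference, Capn6-Ko minus Capn6-Wt, against the mean log2 signal, set to 0 at each array's 75th percentile, for 12875 measured genes (grey) and the 5 detected alternative activation genes (coloured, bars ± the spot SD). Chil3 lies above the line that marks the call at 0.48, where the cloud is narrow, and Klf4, Tgm2, Mgl2 and Clec10a lie within 0.1 of 0.

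Klf4, Tgm2, Mgl2 and Clec10a lay within 0.1 of 0, as did 61.4% of all measured genes and 77.3% of those above the median level. Clec10a itself lies below that median level. The median of the 5 detected genes was -0.013. Of the 5 detected genes, Chil3 alone was called. The 13 measured macrophage markers had a median of 0.19, with 11 higher and 2 lower, from -0.034 (Mertk) to 0.36 (Cd14). Aif1 and Cd14 were called higher, and Fcgr1 was at 0.27, Lgmn at 0.0023 and Lyz2 at -0.0078. All 13 were below Chil3, and the other 4 detected genes were below the median of these markers.

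The receptor and signalling genes through which IL-4 and IL-13 act were detected, and the receptor chains were at like levels in both cultures. Il4ra, the α chain, has 2 probes, which read 691 and 241 in Capn6-Wt, then 629 and 243 in Capn6-Ko, a mean difference of -0.043 ± 0.074. Il2rg, the common γ chain, was at 0.069 ± 0.078 and Il13ra1 at 0.035 ± 0.12. Il13ra2, the decoy receptor for IL-13, was at background. Stat6 has 3 probes at 0.057, -0.062 and -0.033, and a mean of -0.013 ± 0.055. Jak1 was at -0.035 ± 0.082, Tyk2 at 0.052 ± 0.078 and Jak2 at 0.056 ± 0.078.

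Jak3, which binds the common γ chain, was at 0.32 ± 0.10, just short of the call. Its probes disagree, at 0.12 ± 0.17 (94.0 against 101) and 0.53 ± 0.12 (144 against 205). Of the ligands, Il13 was at background. Il4 was at the edge of detection, with a mean signal of 20.8 over 10 spots in Capn6-Wt, 7 of them well above background, and 22.4 in Capn6-Ko, 10 of them (0.14 ± 0.10).

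The lowest genes of the pathway were its adaptor Irs1 and the cytokine feedback genes. Irs1 read 108 and 67.1, a difference of -0.67 ± 0.17 from 1 probe, while its second probe was at background. The suppressors of cytokine signalling, which JAK-STAT pathways induce and which inhibit them, were lower in 4 of 4, a group picked out after the values were seen. Cish was at -0.59 ± 0.33, Socs2 at -0.42 ± 0.12, Socs3 at -0.24 ± 0.093 and Socs1 at -0.23 ± 0.17. The Socs2 value averages 3 probes, of which the one with repeated spots was at -0.36 ± 0.055 (76.7 in Capn6-Wt, 59.1 in Capn6-Ko). Irs1, Cish and Socs2 were called lower. Irs2, the insulin receptor substrate that IL-4 uses in macrophages, was at -0.080 ± 0.076.

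None of the remaining genes of the list was called. Stat3 was at -0.11 ± 0.085, Gab2 at -0.20 ± 0.17, Pik3r1 at 0.14 ± 0.12, Pik3cd at 0.043 ± 0.049, Akt1 at -0.026 ± 0.058 and Grb2 at 0.017 ± 0.057. Of the phosphatases that restrain the pathway, Ptpn6 was at 0.20 ± 0.082 and Inpp5d at -0.0059 ± 0.082. In all 23 of 25 genes were measured, 10 higher and 13 lower, with 0 called higher and 3 called lower, against 2.64% and 5.53% of all measured genes. The 3 called lower lie below the median level, where calls were more frequent than these shares. The median was -0.013.

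**Figure D3:**
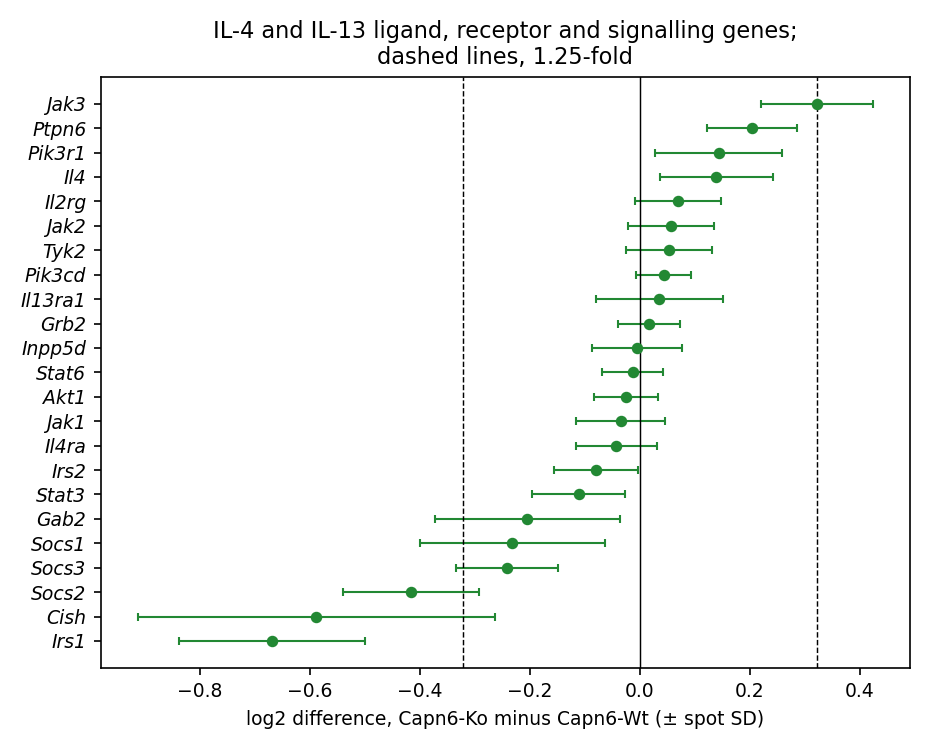
The log2 difference, Capn6-Ko minus Capn6-Wt, of the 23 measured IL-4 and IL-13 ligand, receptor and signalling genes, with bars ± the spot SD and dashed lines at the size of a call. Il4ra, Il2rg, Il13ra1 and Stat6 lie beside 0, Jak3 is highest at 0.32, and Irs1, Cish and Socs2 lie beyond the lower line.

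Transcription regulators of the program were also at similar levels. Pparg, a lipid-activated nuclear receptor that supports alternative activation, was at -0.082 ± 0.026 over repeated spots, and Ppard at -0.10 ± 0.085. Irf4, which drives part of the IL-4 response, was dim, at 27.5 and 21.5 (-0.33 ± 0.33), and was the single regulator called. Ppargc1b (-0.17 ± 0.17) and Epas1 (-0.15 ± 0.054) were the next lowest. Batf3 (0.29 ± 0.093), Egr2, an IL-4-induced gene (0.22 ± 0.085), and Myc (0.19 ± 0.082) were highest. Of 22 measured regulators 15 were lower and 7 higher, with a median of -0.031.

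Other genes used as alternative activation markers spread to both sides. Of 48 with a named probe 36 were measured, 20 higher and 16 lower, with a median of 0.019. Called higher were 4, namely the folate receptor gene Folr2 (0.84 ± 0.078), F13a1, the cytokine gene Il10 (25.7 against 36.1, 0.50 ± 0.10) and the elastase gene Mmp12 (0.42 ± 0.17). Called lower were 5, namely the oxysterol enzyme gene Ch25h (-0.45 ± 0.17), Socs2, fibronectin Fn1 (-0.35 ± 0.076), Vegfa (-0.35 ± 0.066) and Irf4. Over all measured genes these shares were 2.64% and 5.53%. Calls were more frequent below the median level, where all of these called genes but Folr2 and Fn1 lie. The probes of Mmp12 disagree, and the call rests on the dim one, at 0.72 ± 0.33 (31.7 against 51.6), while the bright one was at 0.13 ± 0.078 (1479 against 1594) and not called. Of the probes of Vegfa, 1 was past the call at -0.46 ± 0.12 and the other was not, at -0.23 ± 0.065. Folr2, F13a1 and Il10 were the 3 members of that list with a difference at least as high as that of Chil3. F13a1 was so only by the mean of its probes, since its bright probe was at 0.35 ± 0.076. Undetected on both arrays were 12, among them the hemoglobin scavenger receptor gene Cd163 and the chemokine genes Ccl22 and Ccl24. Ccl17 was dim, at 29.8 and 25.3 (-0.22 ± 0.33).

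Classical activation genes were read for contrast, since TNF-α was in both media. Of 30 with a named probe 23 were measured, 18 higher and 5 lower, with a median of 0.060. Il1b was highest, at 24.3 in Capn6-Wt and 37.1 in Capn6-Ko (0.62 ± 0.11), followed by Cd40 (0.24 ± 0.17) and Fpr2 (0.24 ± 0.33). Ptgs2, the inducible cyclooxygenase, was lowest (-0.50 ± 0.036), and Tnf itself was at 0.11 ± 0.029 over 10 spots. Il6, Il12a, Il23a and Cxcl9 were at background. Called higher was 1 gene, Il1b, and lower 1 gene, Ptgs2.

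**Figure D4:**
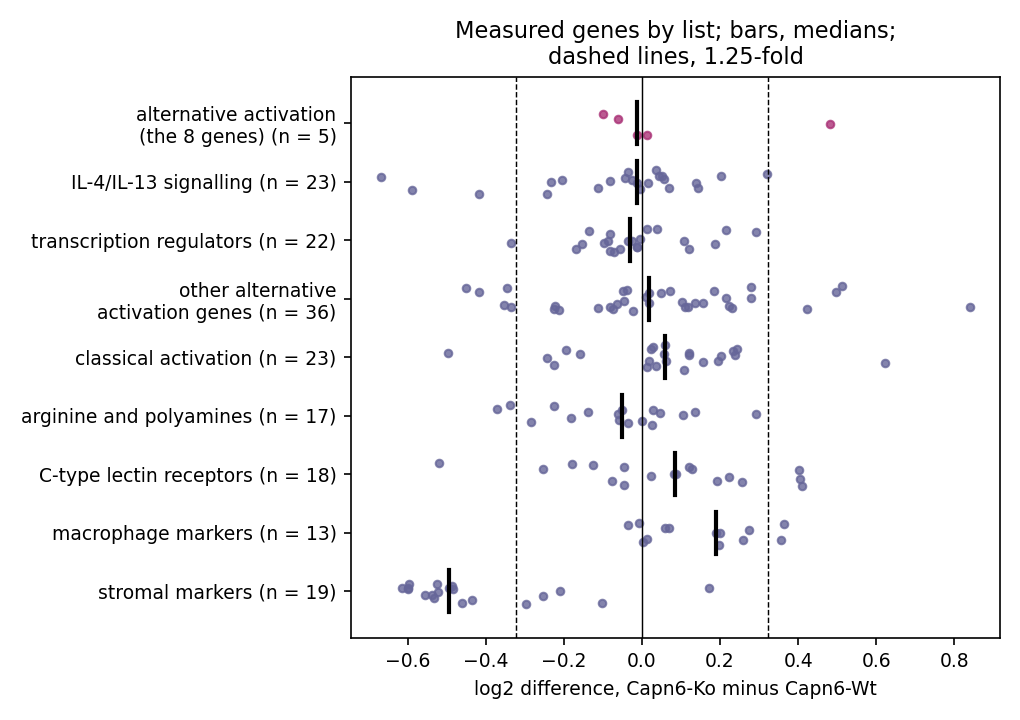
The log2 difference, Capn6-Ko minus Capn6-Wt, of every measured gene of 9 lists (points, spread at random in height), with black bars at the medians and dashed lines at the size of a call. The alternative activation genes centre on -0.013 with Chil3 apart, macrophage markers centre on 0.19, and stromal markers on -0.50.

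Other cells in the cultures could carry some of these transcripts, and their markers are given beside the results. In bulk RNA, fewer cells of a type and less RNA per cell cannot be told apart. Stromal markers had a median of -0.50, with 18 of 19 measured genes lower, 14 of them called lower, and their summed signal relative to the 75th percentile was 218 in Capn6-Wt against 156 in Capn6-Ko. The lowest were Tagln (-0.61), Acta2 and Col1a2 (both -0.60), the highest was Thy1 (0.17), and Lum was at background. Macrophage markers summed to 1410 in Capn6-Wt and 1498 in Capn6-Ko. Such sums, here and below, add linear signals, so they follow the brightest probes of a list more than the others. For Tgm2 and Klf4, which fibroblasts also express, the part of the stromal difference in the values was not tested. Nor was it tested for genes called lower in the other lists, such as Fn1, Irs1 and Vegfa.

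Neutrophils and their precursors express Chil3 as well. Their markers had a median of -0.057, with 10 of 14 measured genes lower and 1, Ltf (0.33 ± 0.17), called higher. Mmp9 (-0.26) and Ctsg (-0.21) were the lowest, and Elane (0.14) was next to Ltf. They summed to 189 in Capn6-Wt and 178 in Capn6-Ko, with S100a8 at -0.016 and S100a9 at -0.049, and Ms4a3 and Retnlg at background. Prtn3 was dim and well above background only in Capn6-Wt, at 20.3 against 15.5 in Capn6-Ko.

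Eosinophils are a known source of Alox15 and Chil3. Of 11 eosinophil markers 8 were measured, 6 higher, with a median of 0.14 and sums of 25.3 and 25.3. Ear2, at 7035 and 6699, makes most of these sums. Prg2 (57.4 and 82.0, 0.53 ± 0.17), Siglecf (0.39 ± 0.096) and Ear6 (0.32 ± 0.17) were called higher in Capn6-Ko, Il5ra (-0.24) and Ear2 (-0.052) were lower, and the eosinophil peroxidase Epx, Prg3 and Rnase2b were at background on both arrays. Ear6 only just reached the call. The called genes lie below the median level, where calls were more frequent than the 2.64% over all measured genes. Dendritic cells express Mgl2. Of 13 of their markers 6 were measured, with a median of 0.14 and sums of 246 and 244, mostly from Siglech (62926 and 60082). Differences ran from -0.049 (Siglech) to 0.31 (Cd7), and Zbtb46, Flt3, Xcr1 and Cd209a were at background. Clec9a was dim and well above background only in Capn6-Ko, at 21.2 against 14.2 in Capn6-Wt.

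Mast cell and basophil markers were at background in 12 of 14, Cpa3, Mcpt8 and Fcer1a among them, and the measured ones were at -0.080 (Tpsb2) and -0.050 (Kit), with sums of 1.41 and 1.34. Markers of T, NK and innate lymphoid cells, sources of IL-4 and IL-13, had 8 of 17 measured, 7 lower, with a median of -0.055 and sums of 48.7 and 47.6, and Cd3d, Cd3g and Gata3 were at background. Il7r, at 12362 and 11802, makes most of these sums. The lowest of these markers was Il1rl1, the IL-33 receptor gene, which was called lower at -0.47 ± 0.10. Endothelial markers had 5 of 12 measured, all 5 lower, from -0.26 (Esam) to -0.034 (Kdr), and none called, with Cdh5 and Tek at background. Their sums were 37.4 and 36.0, mostly from Vwf (9193 and 8632). The part of these cell types in the value of Chil3 was not tested.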

How the data were processed

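Total RNA of pooled cells was labelled with Cy3 and read on 2 Agilent arrays of the same slide, 1 per group. The deposited scanner files hold spot intensity on a linear scale, background-subtracted by Agilent Feature Extraction (version 10.10.1.1 per the file headers), with marks of 0 or 1 per spot, named as other values, that the authors deposited beside it. The authors' value table is that intensity times 1 constant per array, 2.39 and 2.42, with column medians of 53.0 and 50.7.

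Here, control spots and outlier spots (161 and 136) were dropped, log2 values were set against each array's 75th percentile, and repeated spots were averaged. A probe counted as measured if a majority of its spots passed the scanner's mark for well above background in both cultures, and a gene is the mean over its measured probes. Probes were named by RefSeq accession (GRCm38.p6; 27232 matched). The spot SD comes from 263 probes with at least 5 spots per array, in 8 bins of level. With 1 array per group no test was run, and precision is limited by the number of arrays. The steps were tested on simulated data. The 8 genes, 11 gene lists and 8 marker lists were chosen with earlier results of these data known. The rule named all 8 genes, the IL-4 pathway and paralogue lists whole, and elsewhere the 3 highest, the 3 lowest and all called genes, with stromal and some marker lists given by fewer names; others were chosen after their values were seen. Software was Python 3.11.15, numpy 2.4.6, pandas 2.3.3, matplotlib 3.10.9, R 4.3.3 and limma 3.58.1.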

Additional observations from a re-analysis of the deposited data

How the results depend on the processing

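The 9 other settings were quantile normalization, a median centre, no filter on dim probes, only probes above the median level, the brightest probe of each gene, outlier spots kept, the authors' value table and, chosen after seeing the data, normexp and no background subtraction, both on the median spot signal. The 2 planned versions of these last on the mean spot signal were not run. Chil3 was at 0.48 under all 9, but most of these could not move it. It has 1 probe, with 1 spot per array. Settings that choose among probes, keep outlier spots or use the authors' value table therefore left its value unchanged. A median centre shifts all genes by the same constant. The same holds for Klf4, Mgl2 and Clec10a. The settings that could move Chil3 gave 0.480 (quantile normalization), 0.484 (normexp) and 0.484 (no background subtraction). Klf4 ran from -0.10 to -0.081, Tgm2 from -0.066 to -0.019, Mgl2 from -0.054 to 0.0059 and Clec10a from 0.0096 to 0.067, each within its spot SD of the value given. The median of the detected genes ran from -0.037 to 0.0059, and 5 genes were detectable under the 8 settings that keep a filter. With no filter on dim probes 2 genes were called in place of 1, since Alox15, at background on both arrays, then counted as lower. Over all genes, 2.64% were called higher and 5.53% lower, 0.629% and 1.52% with normexp, 0.761% and 1.88% with no background subtraction, 0.868% and 1.30% with only probes above the median level, and 8.07% and 12.5% with no filter. Of 169 list medians, 7 moved by more than the list's median spot SD. The chitinase-like list went from 0.22 to 0.037 with normexp and 0.083 with no subtraction, and the stromal list from -0.50 to -0.40 with normexp. With no filter the resistin list went from -0.13 to -0.49, the mast cell and basophil list from -0.065 to -0.21 and the T, NK and innate lymphoid list from -0.055 to -0.18. The dendritic list went from 0.14 to 0.048 with only probes above the median level. No paired analysis was possible because each group is 1 array. Signal over background limits Arg1, Retnla and Alox15, for which no difference could be measured.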
